A study of Rattus norvegicus with 6 samples.

Results

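Glomeruli of AT1R Tg rats given AC1903 were compared with glomeruli of wild type (WT) rats. AT1R is a receptor for angiotensin II, and AC1903 is a small molecule that blocks TRPC5, a calcium-permeable cation channel. The comparison used 4 of the 6 samples of the series, 2 on each side, taken by genotype and treatment label, and the authors' deposited tables of fold changes cover other pairs of groups. All rats were Sprague Dawley. The WT rats had received vehicle and were 20.4 and 21.9 weeks old (replicates 1 and 2). The AT1R Tg rats with AC1903 were 23.0 and 20.4 weeks old. AT1R Tg rats with vehicle, 20.4 and 17.4 weeks old, were fitted in the same model and are given beside many of the genes below. The series' design text calls the treated cohort advanced. The AC1903 and WT groups differ in both the transgene and the treatment, and these cannot be told apart in this comparison alone. The labels name neither the promoter that drives the transgene nor the receptor sequence it carries. The sources used here give neither the dose of AC1903 nor the length of treatment. The labels do not say that replicates are separate animals, but the 2 samples of every group differ in age.

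A glomerulus is a tuft of capillaries held by mesangial cells and wrapped by podocytes, whose interlocking foot processes form the slit diaphragm that filters plasma. Angiotensin II acting through AT1R constricts vessels and, in podocytes, raises calcium entry and remodels actin, and TRPC channels are among the channels that carry that calcium. Rats with excess AT1R in podocytes are known for protein in the urine and progressive scarring of glomeruli. Transforming growth factor beta (TGF-beta) ligands, which signal through SMAD proteins, are known for driving matrix deposition in such scarring.

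Total expected counts per library were 25045081 and 36026772 in WT and 12325515 and 12637582 with AC1903, so depth differed between the sides. The share of counts in mitochondrially encoded genes was 22.3% and 28.3% in WT and 34.0% and 32.0% with AC1903. Levels below are CPM, counts scaled to library size with edgeR's TMM factors, and differences are on the log2 scale with their standard error (SE). The tissue label was checked against marker genes. NPHS1 (nephrin) and PODXL (podocalyxin), which mark podocytes, lay between 1481 and 4864 CPM in all 4 libraries, and KDR and EHD3 of the glomerular endothelium between 1154 and 1849 CPM. Tubule markers were present as well, with the summed level of 31 proximal tubule genes at 6156 and 3729 CPM in WT and 9174 and 8938 CPM with AC1903. The samples are bulk tissue, so fewer cells of a type and less RNA per cell cannot be told apart.

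Of 13426 genes tested, 3 were higher and 2 lower with AC1903 at an adjusted p under 0.05 in edgeR's quasi-likelihood test, which is 0.0223% and 0.0149% of the genes. The transcription factor RUNX2 and the TGF-beta ligand TGFB3 rose, and the muscle kinase SPEG and the membrane protein GSG1 fell. DESeq2 called 118 higher and 63 lower (0.879% and 0.469%), among them the 5 called in edgeR, while limma-voom called 7. An unadjusted p under 0.05 was reached by 929 higher and 564 lower genes (6.92% and 4.2%). Both AC1903 libraries lay above both WT libraries in 24.2% of the genes and below both in 23.5%. The median log2 difference over all genes tested was 0.0019. The vehicle libraries bear on this comparison through the filter, the scaling and the estimate of spread. The number of edgeR calls changed when any 1 of the 6 libraries was left out. From the 4 libraries alone the count was 21, and thinning every library to the depth of the smallest gave 16.

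RefSeq promoters on GRCr8 are shown for 4 genes that lead the comparison. RUNX2 and TGFB3 stood higher with AC1903, and SPEG and DES, which lie next to each other in the genome, stood lower. The table of promoters matched these 4, and GSG1 is named only. Each is the 250 bases before the start site, the more upstream of 2 listed start sites for RUNX2 and for SPEG, printed 5′ to 3′ on the gene's strand. Capitals mark matches to the RUNX core TGTGGT, the TATA box TATAAA or the CArG box of serum response factor, each searched on both strands.
RUNX2, chr9:23664808-23665057, plus strand: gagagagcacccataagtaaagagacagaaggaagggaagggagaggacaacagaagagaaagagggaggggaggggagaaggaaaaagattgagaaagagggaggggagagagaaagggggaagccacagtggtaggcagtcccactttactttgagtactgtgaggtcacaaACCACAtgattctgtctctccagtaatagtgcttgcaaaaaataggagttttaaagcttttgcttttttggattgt
TGFB3, chr6:111456947-111457196, minus strand: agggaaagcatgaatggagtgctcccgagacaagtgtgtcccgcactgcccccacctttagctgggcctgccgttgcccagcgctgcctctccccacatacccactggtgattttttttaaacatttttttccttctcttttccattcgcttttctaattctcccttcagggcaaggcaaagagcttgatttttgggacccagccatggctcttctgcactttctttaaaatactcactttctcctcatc
SPEG, chr9:84314137-84314386, plus strand: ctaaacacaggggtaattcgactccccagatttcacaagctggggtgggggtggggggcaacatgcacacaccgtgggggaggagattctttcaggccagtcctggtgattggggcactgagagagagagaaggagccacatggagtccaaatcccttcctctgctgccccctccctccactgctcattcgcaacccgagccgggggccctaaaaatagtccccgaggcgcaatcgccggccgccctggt
DES, chr9:84299376-84299625, plus strand: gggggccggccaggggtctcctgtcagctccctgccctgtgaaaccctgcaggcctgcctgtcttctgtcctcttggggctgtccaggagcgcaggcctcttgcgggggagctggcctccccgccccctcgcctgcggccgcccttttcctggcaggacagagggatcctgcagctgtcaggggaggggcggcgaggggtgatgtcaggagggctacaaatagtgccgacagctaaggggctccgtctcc
RUNX2 held 1 RUNX core, read as its reverse complement 76 bases before the start, and the other 3 windows held 0 matches to any of the 3 motifs. The window of the other listed RUNX2 start site, not shown, held 0 RUNX cores. Among 33469 rat promoter windows of the same length 14.5% held the RUNX core, 12.9% the TATA box and 1.5% the CArG box, with no overlap between the motifs in the windows shown. A match describes the letters and is no evidence of binding.

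RUNX2 (ENSRNOG00000020193), the master transcription factor of osteoblast differentiation, stood at 2.23 and 3.23 CPM in the WT libraries and at 30.7 and 37.0 CPM in the AC1903 libraries. The vehicle libraries stood at 39.6 and 26.4 CPM. Both transgenic groups lay far above WT and overlapped each other. The log2 difference of AC1903 from WT was 3.62 with SE 0.29, a 12.3-fold rise (edgeR adjusted p = 0.00693), and that of vehicle from WT was 3.59 with SE 0.29, the 2 sharing the WT libraries. Without WT replicate 1 or AC1903 replicate 2 the adjusted p of RUNX2 was 0.0635 and 0.0628, with log2 differences of 3.38 and 3.48. Of the genes nearest RUNX2 in the RefSeq order that were measured, neither was higher. On one side CLIC5, an intracellular chloride channel protein, stood at 787 and 725 CPM in WT and 648 and 692 CPM with AC1903. On the other side SUPT3H had a log2 difference of -1.13 (adjusted p = 0.435), and ENPP5, farther out beyond CLIC5, had one of 0.56.

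TGFB3 (ENSRNOG00000009867) stood at 10.1 CPM in both WT libraries and at 73.1 and 85.0 CPM in the AC1903 libraries. The vehicle libraries held 131.5 and 77.4 CPM, so that the AC1903 range overlapped the vehicle range and neither touched WT. The log2 difference from WT was 2.97 with SE 0.26 (edgeR adjusted p = 0.00985). Leaving out WT replicate 1 or 2 gave an adjusted p of 0.131 and 0.137, and leaving out AC1903 replicate 1 or 2 gave 0.0517 and 0.0746, with log2 differences between 2.85 and 3.06. The ligand TGFB1 stood at 46.2 and 54.8 CPM in WT and 28.7 and 42.1 CPM with AC1903, a log2 difference of -0.51 with SE 0.21 (adjusted p = 0.433). Thus the AC1903 libraries lay above WT for TGFB3 and below it for TGFB1.

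Of the other TGF-beta and bone morphogenetic protein (BMP) genes, none passed in edgeR. Over the 45 measured members, 25 were positive and the median was 0.04 (-0.02 without WT replicate 2, 0.02 without WT replicate 1 and 0.01 without AC1903 replicate 1), beside 50.2% positive over all genes. GDF5, a BMP family ligand of joint development, stood at 1.33 and 1.00 CPM in WT and 10.1 and 11.1 CPM with AC1903 (log2 difference 3.19, SE 0.41, adjusted p = 0.0568). BMP4, a ligand that acts in kidney development, stood at 73.6 and 58.9 CPM in WT and 29.7 and 48.0 CPM with AC1903 (adjusted p = 0.384). The BMP receptor BMPR2 stood at 188.5 and 129 CPM in WT and 267 and 194 CPM with AC1903 (adjusted p = 0.446). For GDF5, BMP4 and BMPR2 the AC1903 and WT libraries did not overlap. Of the 45 members 11 had both AC1903 libraries above both WT libraries and 7 had both below, beside 24.2% and 23.5% of all genes tested. Among the target genes, ID4 had a log2 difference of 0.76 with SE 0.27, and ID1, ID2 and ID3 lay between -0.02 and 0.15. The SMAD proteins that carry the signal, SMAD2 and SMAD4, had log2 differences of -0.27 and 0.20.

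Genes of bone and mineral were few in these libraries, with 10 of 22 measured, 6 positive and a median of 0.37. Without AC1903 replicate 2 that median was 0.03. ALPL, the tissue-nonspecific alkaline phosphatase that frees phosphate for mineral, stood at 93.8 and 96.3 CPM in WT and 225.5 and 241.5 CPM with AC1903. Both AC1903 libraries also lay below the vehicle libraries, which held 341 and 282 CPM. The log2 difference of ALPL from WT was 1.3 with SE 0.17 (edgeR adjusted p = 0.0568, DESeq2 adjusted p = 7.64e-11). SOST, an inhibitor of Wnt signalling made by osteocytes, stood at 1.36 and 0.895 CPM in WT and 4.83 and 8.47 CPM with AC1903 (adjusted p = 0.309). ANKH, which exports an inhibitor of mineral formation, stood at 22.9 and 22.6 CPM in WT and at 10.4 CPM in both AC1903 libraries (log2 difference -1.13, SE 0.27, adjusted p = 0.309). Secreted phosphoprotein SPP1 and matrix Gla protein MGP had log2 differences of 0.42 and -0.59.

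The genes next in order of p on the higher side missed the threshold narrowly in the edgeR fit of all 6 libraries. They were drawn from genes whose AC1903 and WT libraries did not overlap, so that separation was a condition of the choice. EPX, the peroxidase of eosinophils, stood at 0.0718 and 0.488 CPM in WT, 19.6 and 10.9 CPM with vehicle, and 9.90 and 16.4 CPM with AC1903 (log2 difference 5.43, SE 0.65, adjusted p = 0.0544). Its level in WT replicate 1 was under the 0.108 CPM that a count of 0 allows there. EPX was 1 of 5 measured markers of neutrophils, eosinophils and mast cells, and the others had log2 differences of at most 0.90. IGSF10, an immunoglobulin superfamily protein, stood at 10.8 and 9.79 CPM in WT and 56.2 and 76.8 CPM with AC1903 (adjusted p = 0.0568). The synaptic vesicle protein SYNPR went with it, at 4.67 and 7.29 CPM in WT and 43.5 and 79.9 CPM with AC1903, and LYPD1, a GPI-anchored protein that binds nicotinic receptors, stood at 52.6 and 55.3 CPM in WT and 240 and 386 CPM with AC1903. ERRFI1, a feedback inhibitor of the EGF receptor, stood at 6.89 and 8.40 CPM in WT, 16.6 and 17.1 CPM with vehicle and 27.8 and 21.2 CPM with AC1903. For EPX, IGSF10, SYNPR and LYPD1 the AC1903 and vehicle ranges overlapped, whereas both AC1903 libraries exceeded both vehicle libraries for ERRFI1. DESeq2 called all 5 of these genes, with adjusted p between 2.95e-16 and 6.32e-07.

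**Figure D1:**
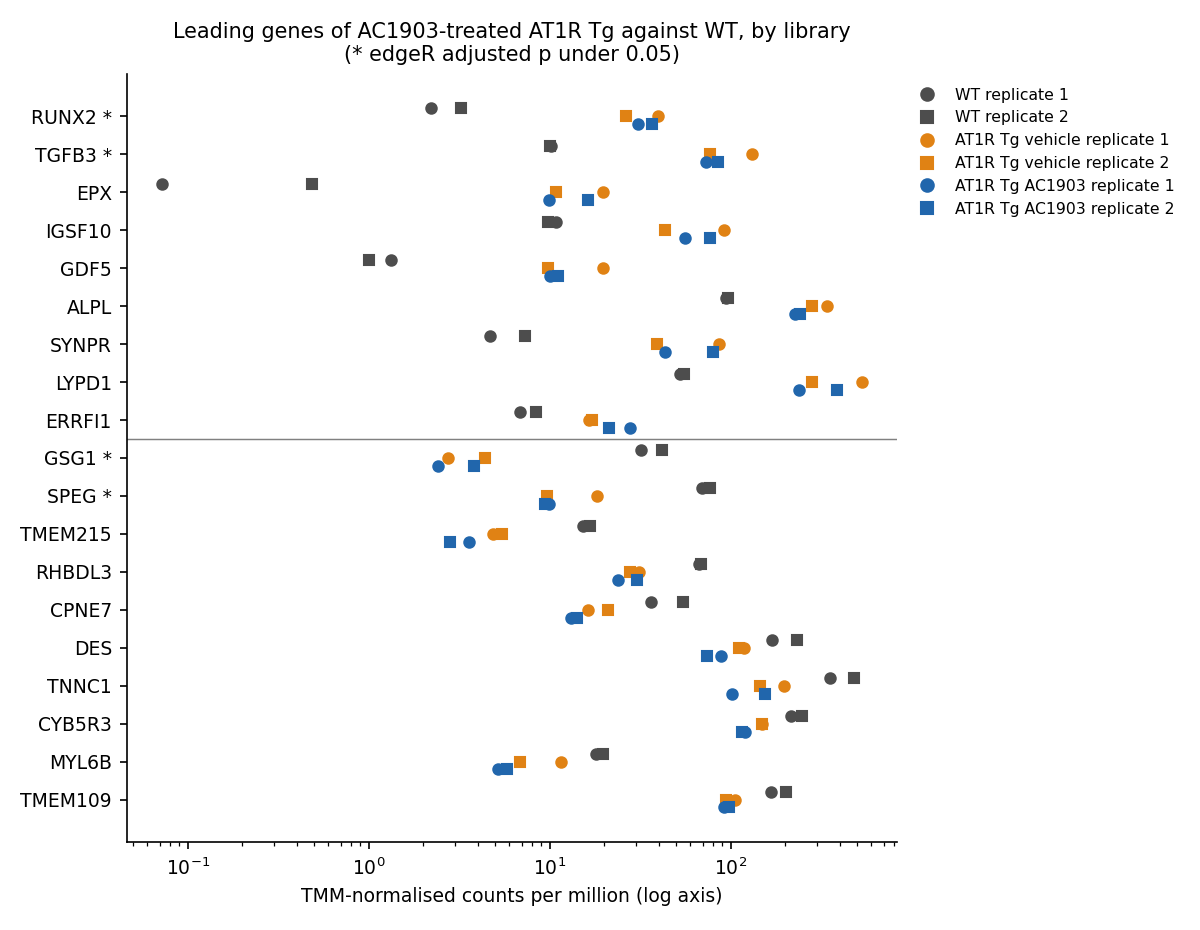
CPM of 19 genes in each library on a log axis, those higher in AC1903-treated AT1R Tg than WT above the line, those lower below. The ranking by p was made within each direction separately, so genes not shown can have a smaller p than some shown. An asterisk marks the called genes shown. Genes were taken only where the 2 AC1903 libraries lay on 1 side of the 2 WT libraries. For all 19 the vehicle libraries lie on that side as well.

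On the lower side 4 of the 10 leading genes, SPEG, DES, TNNC1 and MYL6B, belong to the structure of muscle cells. GSG1 (ENSRNOG00000008518), a membrane protein first described in germ cells, stood at 32.0 and 41.6 CPM in WT, 2.76 and 4.40 CPM with vehicle, and 2.41 and 3.84 CPM with AC1903. Neither transgenic group overlapped WT, and they overlapped each other. GSG1 fell by 3.55 on the log2 scale with SE 0.33 (edgeR adjusted p = 0.0117). Leaving out 1 of the 4 libraries gave it a log2 difference between -3.94 and -3.27, with adjusted p of 0.0635 and 0.130 for the loss of WT replicate 1 and 2, respectively, and 0.15 and 0.0986 for AC1903 replicate 1 and 2.

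SPEG (ENSRNOG00000019850), a kinase that organises the membranes of striated muscle, stood at 69.9 and 77.3 CPM in WT, 18.2 and 9.69 CPM with vehicle, and 9.90 and 9.43 CPM with AC1903. It fell by 2.93 on the log2 scale with SE 0.29 (edgeR adjusted p = 0.0134). The adjusted p of SPEG was 0.0865 when WT replicate 1 was left out and 0.117 for WT replicate 2, then 0.164 and 0.242 for the AC1903 replicates, with log2 differences between -3.0 and -2.86. DES, desmin, the intermediate filament of muscle and of mesangial cells, is the gene next to SPEG, and stood at 168 and 231 CPM in WT, 118 and 111 CPM with vehicle, and 88.3 and 74.3 CPM with AC1903. The 3 groups of DES did not overlap, and its log2 difference from WT was -1.30 with SE 0.20 (adjusted p = 0.096). GMPPA, on the other side of SPEG, stood at 15 and 15.1 CPM in WT and 17.1 and 16.9 CPM with AC1903, and DNPEP, beyond DES, had a log2 difference of -0.01. The 2 neighbours DES and SPEG thus lay lower together, and the genes flanking them did not.

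TNNC1, troponin C of slow and cardiac muscle, stood at 356 and 480 CPM in WT and 102 and 155 CPM with AC1903 (log2 difference -1.70, SE 0.27, adjusted p = 0.116). The myosin light chain MYL6B stood at 18.1 and 19.7 CPM in WT and 5.16 and 5.83 CPM with AC1903 (adjusted p = 0.165). Both were also lower with vehicle, where TNNC1 held 197.5 and 145 CPM and MYL6B held 11.5 and 6.84 CPM. TMEM215, RHBDL3, CPNE7, CYB5R3 and TMEM109 completed the lower side, with log2 differences between -2.33 and -0.96 and adjusted p between 0.0559 and 0.183. TMEM215 stood at 15.4 and 16.7 CPM in WT and 3.58 and 2.80 CPM with AC1903. CYB5R3, a cytochrome b5 reductase, stood at 216 and 248 CPM in WT and 120 and 115 CPM with AC1903. DESeq2 called all 8 uncalled genes of the lower side, with adjusted p of at most 0.000175. These 8 were likewise chosen for a small edgeR p in the same counts, so the DESeq2 calls give no separate support.

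Some genes set the AC1903 libraries apart from both other groups. ZBTB16, a zinc finger repressor that glucocorticoids induce, stood at 2.73 and 0.976 CPM in WT and at 6.44 and 1.14 CPM with vehicle. In the AC1903 libraries it stood at 118.5 and 45.3 CPM, each above all of the other 4 libraries. The log2 difference from WT was 5.50 with SE 0.79. It passed in DESeq2 (adjusted p = 0.000642) but missed the threshold in edgeR (adjusted p = 0.0758). Its log2 difference from vehicle was 4.40, and the edgeR adjusted p against WT was between 0.018 and 0.823 when 1 library was left out.

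FKBP5, a co-chaperone that restrains the glucocorticoid receptor, stood at 92.6 and 49.0 CPM in WT, 101 and 55.6 CPM with vehicle, and 214.5 and 161 CPM with AC1903 (log2 difference from WT 1.41, SE 0.36, adjusted p = 0.316). The kinase MAP3K6 stood at 5.06 and 5.21 CPM in WT, 5.73 and 2.44 CPM with vehicle, and 22.8 and 10.9 CPM with AC1903 (adjusted p = 0.332). Both genes passed in DESeq2, with adjusted p of 0.0127 and 0.0348. Of 22 measured glucocorticoid-responsive genes 16 were positive against WT, and the median was 0.58. In 13 both AC1903 libraries lay above both WT libraries and in 1 both lay below, beside 24.2% and 23.5% of all genes tested. None passed in edgeR and DESeq2 called 4 higher, ERRFI1, ZBTB16, FKBP5 and MAP3K6, beside 0.879% of all genes tested. The transcription factors KLF15 and KLF9 had log2 differences of 0.81 and 0.49. Other known targets, TSC22D3, PER1, SGK1 and DUSP1, lay between -0.29 and 0.11, and the receptor NR3C1 at -0.10, all without a call. The list stood at -0.08 and 0.08 log2 units from the WT mean in WT, 0.10 and -0.20 with vehicle, and 0.57 and 0.51 with AC1903. The hormone status of the rats was not tested.

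CYP26B1, which clears retinoic acid, showed the same order of groups. It stood at 23.0 and 25.6 CPM in WT, 17.3 and 26.0 CPM with vehicle, and 60.7 and 53.5 CPM with AC1903. The log2 difference from WT was 1.23 with SE 0.22 (edgeR adjusted p = 0.19, DESeq2 adjusted p = 0.000621). HMGCS1, which makes the precursor of mevalonate, went the other way, at 53.8 and 72.8 CPM in WT, 62.6 and 55.1 CPM with vehicle, and 29.5 and 33.7 CPM with AC1903 (log2 difference -1.0, SE 0.19, edgeR adjusted p = 0.239, DESeq2 adjusted p = 0.00392). Of 26 measured genes of cholesterol biosynthesis 9 were positive against WT, with a median of -0.14. In 11 both AC1903 libraries lay below both WT libraries and in 3 both lay above, beside 23.5% and 24.2% of all genes tested. CYP51A1 and FDFT1, which act along the same route, had log2 differences of -0.60 and -0.54. None of the list passed in edgeR. Without WT replicate 2 the median became -0.08, without WT replicate 1 -0.23 and without AC1903 replicate 2 -0.22.

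Leukocyte genes were higher with AC1903 in most cases, without any passing in edgeR. PTPRC, the CD45 phosphatase of all leukocytes, stood at 16.7 and 19.8 CPM in WT, 12.7 and 14.2 CPM with vehicle, and 33.9 and 56.9 CPM with AC1903 (log2 difference 1.31, SE 0.25, edgeR adjusted p = 0.239, DESeq2 adjusted p = 0.00286). ITGB2, the beta chain of leukocyte integrins, stood at 14.2 and 15.3 CPM in WT, 11.6 CPM in both vehicle libraries, and 30.0 and 67.5 CPM with AC1903 (log2 difference 1.72, SE 0.33, edgeR adjusted p = 0.239). The macrophage antigen EMR1 stood at 4.74 and 7.40 CPM in WT and 13.4 and 19.7 CPM with AC1903 (adjusted p = 0.309). In each of the 3 the second AC1903 library was the highest of all 6.

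Of 26 measured macrophage and monocyte markers 22 were positive, beside 50.2% over all genes tested, and the median was 0.92. In 12 both AC1903 libraries lay above both WT libraries and in 0 both lay below, beside 24.2% and 23.5% of all genes tested. DESeq2 called 3 higher, beside 0.879% of all genes tested. The median was 0.32 without AC1903 replicate 2, 0.58 without WT replicate 1 and 1.19 without WT replicate 2. The summed level of the list was 338 and 555 CPM in WT, 312 and 395 CPM with vehicle, and 521 and 1186 CPM with AC1903, so that on this sum AC1903 replicate 1 lay within the WT range. The subunits of C1q, abundant in tissue macrophages, had log2 differences near 0, with C1QA at -0.00, C1QB at 0.26 and C1QC at 0.21. Lymphocyte markers were measured for 10 of 23 genes, 8 of them positive with a median of 0.88 and a summed level of 19.2 and 26.9 CPM in WT and 34.4 and 40.5 CPM with AC1903. CD4, on helper T cells and rat macrophages, stood at 6.42 and 7.83 CPM in WT and 10.8 and 19.3 CPM with AC1903. The B cell receptor chain CD79B ran against it, at 1.18 and 1.49 CPM in WT and 0.25 and 0 CPM with AC1903, at or under the level of 3 counts.

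Antigen presentation through MHC class I showed higher levels for its coactivator and its light chain. NLRC5, the coactivator of class I genes, stood at 7.72 and 10 CPM in WT, 3.33 and 4.23 CPM with vehicle, and 18.7 and 17.0 CPM with AC1903 (log2 difference 1.01, SE 0.26, adjusted p = 0.324). B2M, the light chain, stood at 2462 and 3005 CPM in WT, 2210 and 2371 CPM with vehicle, and 4380 and 3950 CPM with AC1903 (log2 difference 0.61, SE 0.24, edgeR adjusted p = 0.428, DESeq2 adjusted p = 0.0333). The immunoproteasome subunit PSMB8 stood at 25.9 and 41.1 CPM in WT and 72.7 and 46.3 CPM with AC1903. Of 31 measured genes of antigen presentation 21 were positive and none passed in edgeR. Their median of 0.14 was -0.09 without WT replicate 1, 0.43 without WT replicate 2 and 0.05 without AC1903 replicate 2. Interferon response genes had no common direction, with 23 of 46 positive and a median of -0.02 that was 0.11 without WT replicate 2. Among them SLFN12/SLFN12L stood at 20.3 and 35.1 CPM in WT, 10.6 and 17.7 CPM with vehicle, and 54.7 and 98.2 CPM with AC1903 (log2 difference 1.46, SE 0.37, adjusted p = 0.316). RSEM splits reads between members of such gene families, so that value is uncertain.

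**Figure D2:**
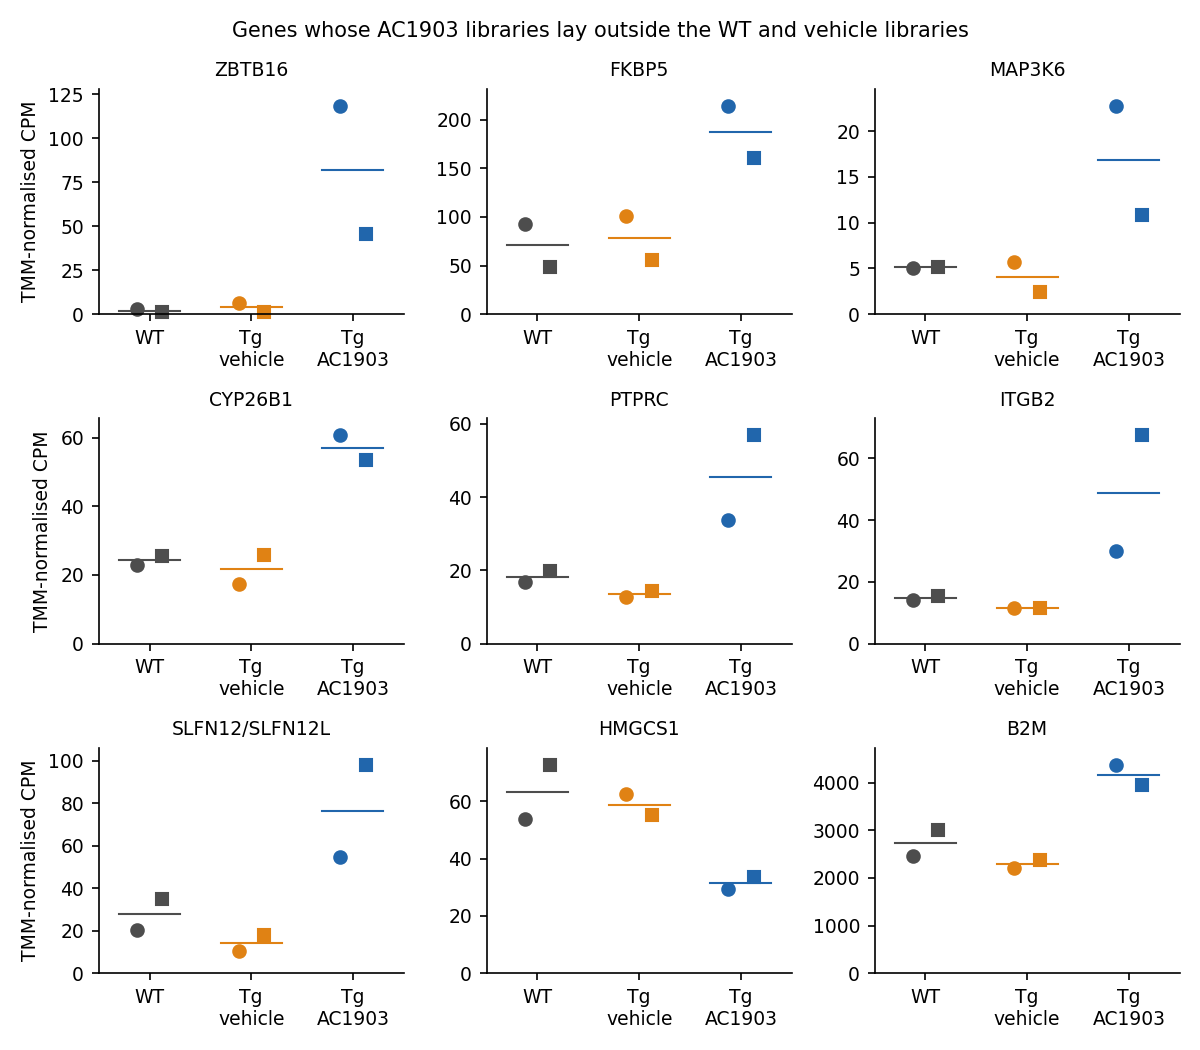
CPM of 9 genes in the 6 libraries (circles, replicate 1; squares, replicate 2; lines, group means; each axis starts at 0). The AC1903 libraries lie above the other 4 for 8 genes and below them for HMGCS1, and the genes were chosen from those described above after their values were seen.

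Proximal tubule genes were nearly all positive. Of 31 measured proximal tubule markers 29 were positive against WT, and the median was 0.91. All 29 had both AC1903 libraries above both WT libraries, beside 24.2% of all genes tested. None passed in edgeR and DESeq2 called 2 higher, SLC13A1 and SLC5A12, beside 0.879% of all genes tested. SLC13A1, a sodium-sulfate cotransporter, stood at 36.6 and 19.9 CPM in WT, 66.4 and 107 CPM with vehicle, and 70.3 and 68.3 CPM with AC1903 (log2 difference 1.3, SE 0.31, adjusted p = 0.309). SLC5A12, a lactate transporter, stood at 61.6 and 28.7 CPM in WT and 122 and 117 CPM with AC1903. The exceptions were SLC7A13 at -0.91 and SLC22A12 at -0.03. The list's median was 1.36 without WT replicate 1 and 0.54 without WT replicate 2, and WT replicate 1 stood 0.78 log2 units above WT replicate 2. In the vehicle libraries, with the same WT controls, the median was 1.29.

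Further along the nephron, 21 of 26 measured genes of the loop, distal tubule and collecting duct were positive, with a median of 0.37 that was 0.13 without AC1903 replicate 2 and 0.57 without WT replicate 1. UMOD, uromodulin of the thick ascending limb, stood at 195 and 229 CPM in WT, 225 and 192 CPM with vehicle, and 331.5 and 313 CPM with AC1903 (log2 difference 0.60, SE 0.17, edgeR adjusted p = 0.35, DESeq2 adjusted p = 0.0423). The thiazide-sensitive cotransporter SLC12A3 stood at 23.9 and 15.1 CPM in WT, 19.7 and 24.0 CPM with vehicle, and 40.4 and 36.4 CPM with AC1903. EGF, made by the same segments, stood at 50.1 and 35.95 CPM in WT and 84.7 and 81.5 CPM with AC1903 (ENSRNOG00000032707, log2 difference 0.95, SE 0.21, adjusted p = 0.308). For UMOD, SLC12A3 and EGF both AC1903 libraries lay above all of the other 4 libraries. The part of tubule RNA in the differences of other genes was not tested.

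Gene groups that proximal tubule cells also express stood higher with it. Of 54 measured genes of drug and xenobiotic metabolism 45 were positive with a median of 0.52. In 35 both AC1903 libraries lay above both WT libraries and in 5 both lay below, beside 24.2% and 23.5% of all genes tested. ABCG2 (ENSRNOG00000039890), an efflux transporter, stood at 68.1 and 59.1 CPM in WT, 207 and 124 CPM with vehicle, and 179 and 159 CPM with AC1903 (log2 difference 1.41, SE 0.24, edgeR adjusted p = 0.183, DESeq2 adjusted p = 3.95e-05). GSTA4 (ENSRNOG00000030449), a glutathione transferase, had a log2 difference of 0.96, and GSTP1, another, one of -0.67. Fatty acid oxidation genes were positive in 34 of 38 cases with a median of 0.34. FABP3 and DECR2 of that list had log2 differences of 0.80 and 1.12. Without WT replicate 2 the medians were 0.36 for drug metabolism and 0.18 for fatty acid oxidation, and without WT replicate 1 they were 0.79 and 0.45. For vehicle against the same WT libraries the medians of these genes were 0.79 and 0.53. None of these genes passed in edgeR.

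All 12 mitochondrially encoded genes were positive with both AC1903 libraries above both WT libraries, beside 24.2% of all genes tested. Their median was 0.50, and for vehicle against the same WT libraries it was 0.58. MT-ND4L, which is part of the first complex of the respiratory chain, stood at 1129 and 1524 CPM in WT and 1870 and 2457 CPM with AC1903 (log2 difference 0.71, SE 0.30, adjusted p = 0.447). The median of the 12 was 0.26 without WT replicate 1 and 0.77 without WT replicate 2. Nuclear-encoded genes of oxidative phosphorylation were positive in 69 of 84 cases, with a smaller median of 0.15, beside 0.46 for vehicle. Cytosolic ribosomal proteins lay on the other side, with 3 of 72 positive and a median of -0.36, beside -0.12 for vehicle. In 36 both AC1903 libraries lay below both WT libraries and in 1 both lay above, beside 23.5% and 24.2% of all genes tested. RPLP2 (ENSRNOG00000002116), of the ribosomal stalk, stood at 145 and 213 CPM in WT and 106 and 126 CPM with AC1903 (log2 difference -0.63, SE 0.21, adjusted p = 0.385). The ribosomal median was -0.13 without WT replicate 2, the library where the list was highest, and -0.52 without WT replicate 1. None of the 3 lists had a member that passed in edgeR.

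**Figure D3:**
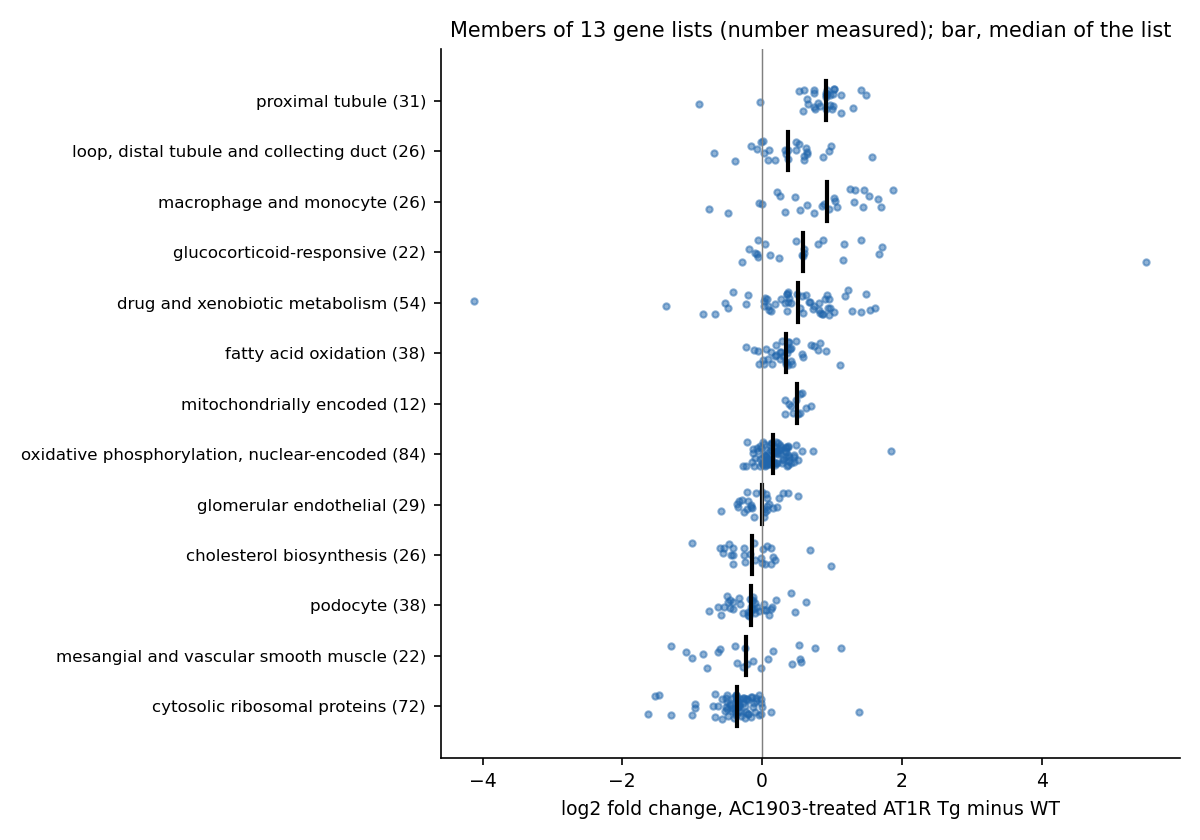
Log2 difference of AC1903-treated AT1R Tg from WT for each measured member of 13 gene lists (points) with the list's median (bar). Nearly all proximal tubule and mitochondrially encoded genes lie right of 0 and nearly all ribosomal protein genes left of it, while endothelial genes centre on 0.

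Podocyte genes leaned lower without a call. Of 38 measured members 28 were negative, and the median was -0.15, beside -0.15 for vehicle against the same WT libraries. In 14 both AC1903 libraries lay below both WT libraries and in 1 both lay above, beside 23.5% and 24.2% of all genes tested. INF2, a formin that shapes podocyte actin, stood at 102 and 108 CPM in WT and 59.3 and 65.1 CPM with AC1903 (log2 difference -0.76, SE 0.21, adjusted p = 0.342). The transcription factors TCF21 and WT1 had log2 differences of -0.63 and -0.42. NPHS1, of the slit diaphragm, stood at 2329 and 1814 CPM in WT and 1481 and 2127 CPM with AC1903 (log2 difference -0.20, SE 0.34). SYNPO, synaptopodin of the foot processes, stood at 778 and 523 CPM in WT and 490 and 715 CPM with AC1903, and PODXL had a log2 difference of -0.15 with SE 0.31. The groups overlapped for NPHS1, SYNPO and PODXL. The podocyte median was -0.35 without AC1903 replicate 2, -0.30 without WT replicate 2, and -0.05 without WT replicate 1 or AC1903 replicate 1.

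Mesangial and vascular smooth muscle genes were positive in 8 of 22 cases with a median of -0.23. In 10 both AC1903 libraries lay below both WT libraries and in 4 both lay above, beside 23.5% and 24.2% of all genes tested. None passed in edgeR and DESeq2 called 3 lower, DES, AGTR1 and MYL9, beside 0.469% of all genes tested. MYL9, the regulatory light chain of smooth muscle myosin, stood at 40.7 and 52.9 CPM in WT, 48.3 and 37.2 CPM with vehicle, and 27.5 and 24.6 CPM with AC1903 (log2 difference -0.84, SE 0.20, edgeR adjusted p = 0.309). The tropomyosin TPM2 stood at 23.7 and 30.0 CPM in WT, 29.6 and 26.5 CPM with vehicle, and 14.0 and 17.1 CPM with AC1903. Both genes were lowest in the AC1903 libraries, with vehicle overlapping WT. PDGFRB, the mesangial growth factor receptor, had a log2 difference of -0.36 with SE 0.20. The list's median was -0.41 without AC1903 replicate 2, -0.15 without AC1903 replicate 1 and -0.13 without WT replicate 2. Glomerular endothelial genes showed no shift, with 14 of 29 positive and a median of -0.00, although that median was -0.26 without AC1903 replicate 1. PLAT, the plasminogen activator of endothelium, was measured at 2090 and 1926 CPM in WT and 1259 and 1416 CPM with AC1903 (log2 difference -0.59, SE 0.24), and PECAM1 at 332 and 341 CPM in WT and 312 and 267 CPM with AC1903.

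AGTR1, the receptor gene itself, pairs with 2 rat genes and was lower with AC1903 in both. ENSRNOG00000010640 stood at 98.2 and 151 CPM in WT, 99.3 and 95.5 CPM with vehicle, and 59.2 and 65.3 CPM with AC1903. The log2 difference from WT was -1.0 with SE 0.21 (edgeR adjusted p = 0.308, DESeq2 adjusted p = 0.00753). The other AGTR1 gene, ENSRNOG00000018346, stood at 85.3 and 112 CPM in WT, 87.8 and 89.9 CPM with vehicle, and 56.1 and 70.6 CPM with AC1903 (log2 difference -0.64, SE 0.19, edgeR adjusted p = 0.354). In both, the AC1903 libraries lay below all of the other 4, and no transgenic library lay above the WT range. RSEM can split reads between the genes of such a pair, so the 2 AGTR1 genes may not be independent measurements. Because the sequence of the transgene is not labelled, these levels do not check the genotype. Of 15 measured genes of the renin-angiotensin system 7 were positive and none passed in edgeR.

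TRPC5 was not analysed here because no gene in the table could be paired with its symbol. TRPC6, the podocyte channel mutated in familial glomerulosclerosis, stood at 3.55 and 4.55 CPM in WT and 2.58 and 4.24 CPM with AC1903 (log2 difference -0.25, SE 0.45). The heat- and osmosensitive channels TRPV1 and TRPV4 had log2 differences of 1.26 and 0.84, with SE 0.34 and 0.23. Over 42 TRP channel and calcium-NFAT genes 23 were positive and none passed in edgeR. RCAN1, the calcineurin inhibitor that NFAT induces, had a log2 difference of 0.31 with SE 0.17. The TRPV1 and TRPV4 libraries of AC1903 and WT did not overlap, while those of TRPC6 did. Of the 42 genes 5 had both AC1903 libraries above both WT libraries and 5 had both below, beside 24.2% and 23.5% of all genes tested.

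**Figure D4:**
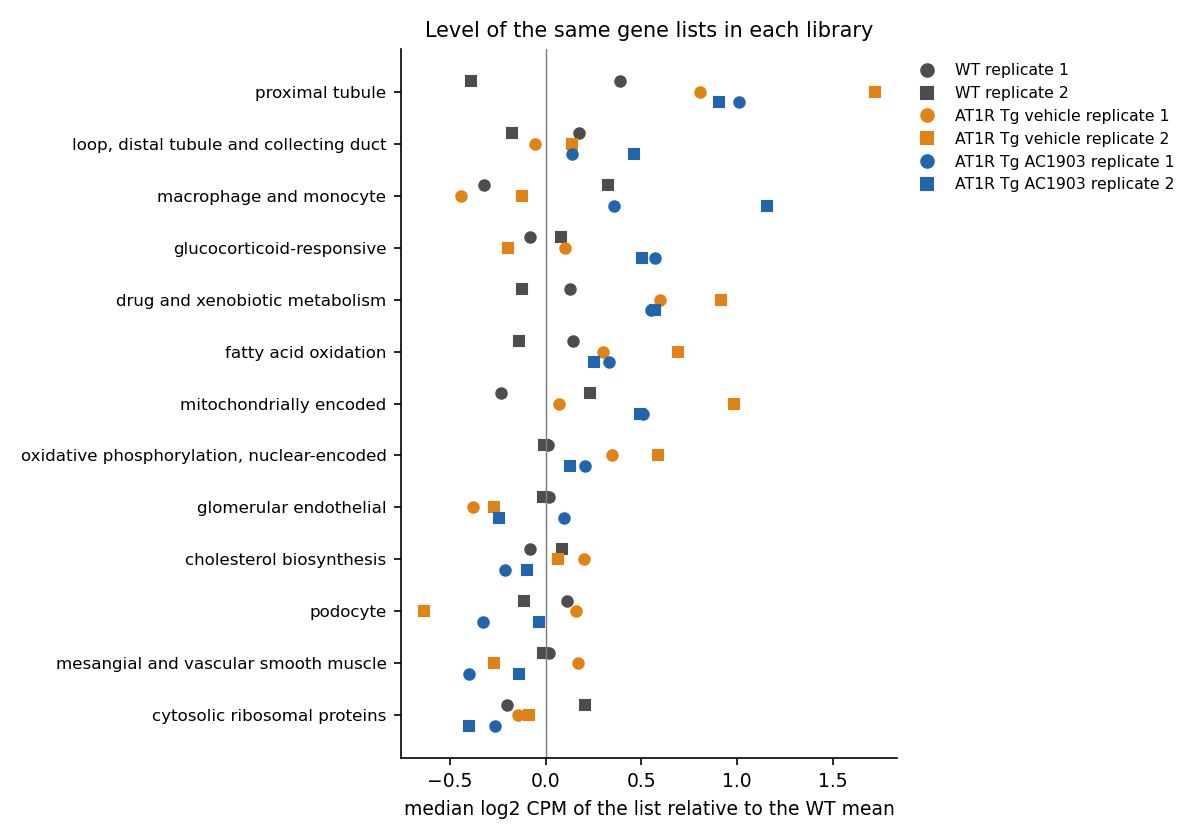
Median log2 CPM of each of the 13 lists relative to the WT mean, in each library (circles, replicate 1; squares, replicate 2). For macrophage and glucocorticoid-responsive genes the AC1903 libraries are the highest of all, whereas for proximal tubule genes vehicle replicate 2 is.

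Matrix genes split. COL1A1, the chain of fibrillar collagen I, stood at 47.1 and 48.3 CPM in WT, 368 and 131 CPM with vehicle, and 136 and 121 CPM with AC1903 (log2 difference 1.43, SE 0.39, edgeR adjusted p = 0.34, DESeq2 adjusted p = 0.0188). TIMP3, an inhibitor of matrix proteases, stood at 130 and 92.3 CPM in WT and 193 and 203.5 CPM with AC1903 (0.83, SE 0.19), and the protease MMP9 at 130 and 220 CPM in WT and 80.9 and 85.2 CPM with AC1903 (-1.07, SE 0.26). None of TIMP3, MMP9 and COL1A1 overlapped between the groups, and all 3 passed in DESeq2. FN1, fibronectin, overlapped, with a log2 difference of -0.26 and SE 0.21. COL4A3 of the glomerular basement membrane pairs with 2 genes, at 0.63 with SE 0.38 (ENSRNOG00000015365) and 0.30 with SE 0.26. Over 42 measured matrix genes 20 were positive with a median of -0.04. Of these 42 genes 12 had both AC1903 libraries above both WT libraries and 13 had both below, beside 24.2% and 23.5% of all genes tested. The integrin chain ITGB3 of the actin and adhesion list stood at 4.67 and 3.90 CPM in WT, 8.07 and 7.49 CPM with vehicle, and 12.7 and 11.5 CPM with AC1903 (log2 difference 1.5, SE 0.27, edgeR adjusted p = 0.191). Of that list 15 of 47 were positive with a median of -0.09, and SPEG was its member that passed.

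Injury and stress genes gave small medians. The kidney injury list had 18 of 30 positive and a median of 0.28, which was -0.11 without AC1903 replicate 2 and 0.45 without WT replicate 2. HAVCR1, kidney injury molecule 1, pairs with 2 genes near the detection limit, with log2 differences of 2.01 with SE 0.83 (ENSRNOG00000007243) and 0.49 with SE 0.58. Keratin KRT8 stood at 23.4 and 29.4 CPM in WT and 39.4 and 42.2 CPM with AC1903, and the monocyte chemokine CCL2 at 1.00 and 1.54 CPM in WT and 1.33 and 2.80 CPM with AC1903. The chaperone HSPA8 stood at 155 and 170 CPM in WT, 209.5 and 172 CPM with vehicle, and 251 and 254 CPM with AC1903 (log2 difference 0.63, SE 0.17), and its partner DNAJA1 had a log2 difference of 0.65 with SE 0.17. NDRG1, which hypoxia induces, stood at 323 and 167 CPM in WT and 556 and 483 CPM with AC1903 (1.09, SE 0.30). HSPA8, DNAJA1 and NDRG1 passed in DESeq2 and not in edgeR. Their lists had no common direction, with a median of -0.06 for immediate early and heat shock genes, 0.26 without WT replicate 2, and of 0.03 for hypoxia and glycolysis. The unfolded protein response list had a median of -0.04, which was 0.17 without AC1903 replicate 1 and -0.22 without AC1903 replicate 2. The cell cycle list had one of 0.08, which was 0.14 without WT replicate 2 and -0.13 without AC1903 replicate 2.

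Differences between AC1903 and vehicle are given here for called genes and for genes already described as higher with AC1903 than in both other groups. RUNX2, TGFB3, GSG1 and SPEG had log2 differences between AC1903 and vehicle of 0.04, -0.40, -0.18 and -0.53, none past the threshold (edgeR adjusted p between 0.652 and 0.975). ZBTB16, PTPRC, ITGB2 and NLRC5 had larger ones, at 4.40, 1.75, 2.07 and 2.24, and these did not pass either. Their levels had been seen before they were set here, so these values give no separate support. NLRC5 with vehicle also lay below WT, with a log2 difference of -1.23. Between AC1903 and vehicle edgeR called 0 genes, with 1090 at an unadjusted p under 0.05, while DESeq2 called 67. The contrasts with WT and with vehicle share the AC1903 libraries, so these values are set side by side and are not independent.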

How the data were processed

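Polyadenylated RNA of isolated glomeruli was sequenced with a stranded mRNA kit, per the labels' protocols. The authors deposited expected counts per Ensembl gene, made with STAR 2.5.2b, RSEM 1.3.0 and the build Rnor_5.0, per the submitters' processing notes. The sources used here give neither the annotation release nor the read filters. Tables of log2 fold changes and p-values for 2 other comparisons were deposited too, per the file headers. These tables were used only for gene symbols, which are human symbols in capitals and cover 12321 gene IDs, of which 154 had 2 symbols and 726 shared one. RefSeq tables of GRCr8 were matched by symbol for promoters and neighbours.

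Expected counts were rounded to whole numbers. Of 26319 genes 13426 passed filterByExpr. Differences were tested with edgeR 4.0.16 in R 4.3.3 (quasi-likelihood) on all 6 libraries in 3 groups, two-sided, with TMM scaling, 3 residual degrees of freedom, a common biological coefficient of variation of 23.0% and Benjamini-Hochberg adjustment over all genes tested, threshold 0.05. CPM are TMM-normalised, and list levels used log2 CPM with a prior count of 2. A count of 0 allows 3 counts, 0.0813 to 0.25 CPM by library, which covers counting error only. With 2 samples a side no permutation p can be under 0.3333. The 2 libraries of a group differed beyond sampling noise (chi-square per degree of freedom 19.0 to 92.8), so none was the same library deposited again, which does not show that they came from separate animals. The test was also run on simulated counts with the same dispersion for every gene, which does not show its error rate in these libraries.

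Alternatives were DESeq2 1.42.0, limma-voom (limma 3.58.1), other scalings and filters, the 4 libraries alone, a replicate block, age as a covariate, thinning, and leaving out each library. Named genes were called genes with a symbol, non-overlapping groups and a mean of at least 1 CPM. Genes of smallest p under the same conditions filled each direction up to 10. Up to 4 members of each of 33 lists and a fixed set were added, and part of these is given. The members and lists were chosen with earlier results of these data known. Some genes, 1 of them past the threshold, are not reported here.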

Additional observations from a re-analysis of the deposited data

How the results depend on the processing

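The count of genes called in edgeR, 5 in all, was 181 in DESeq2, 464 when genes with low counts were kept, 21 from the 4 libraries alone and 16 after thinning. It ran from 1 to 25 when 1 library was left out. It was 5 to 7 in the other 7 alternatives, and the 5 genes were called in every alternative that kept all libraries of both groups. Replicate numbers did not pair the libraries, as same-numbered deviations correlated at 0.0046 between WT and AC1903, and a replicate block gave 7 calls, 4 higher and 3 lower. When 1 library was left out, the log2 difference from WT ranged from -0.60 to 6.3e-05 for FN1, -0.026 to 1.27 for HAVCR1 (ENSRNOG00000021345), -0.49 to 0.026 for NPHS1, -0.66 to 0.051 for TRPC6, -0.34 to 0.0040 for PODXL and -0.42 to 0.20 for SYNPO, and the cause was not tested. The depth of the AC1903 libraries limits what can be said of genes under about 1 CPM.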
